A study of Mus musculus with 2 samples.

Results

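The histone modifying enzymes described here are the genes whose symbol in the array's platform annotation names a lysine demethylase (Kdm), a lysine methyltransferase (Kmt, Setd or Ehmt), an arginine methyltransferase (Prmt), an acetyltransferase (Kat), a histone deacetylase (Hdac), a sirtuin (Sirt), or a subunit of the Polycomb repressive complexes (Ezh1, Ezh2, Eed, Suz12, Jarid2, Mtf2, Rnf2, Ring1 and Bmi1). A probe set counted only where the annotation gave it a single symbol. This chose 60 of 12393 genes, measured by 106 of 22690 probe sets. The rule reads the symbols alone and not the values, but it was set with earlier results of these data known. The samples were mouse induced pluripotent stem cells (iPSCs), which are reprogrammed somatic cells, cultured in embryonic stem cell medium with serum and 2i, a pair of kinase inhibitors. One group was labelled hybridized and the other live, with 1 array each. The sources used here do not name the strain, the cell line or the agent of the hybridization. Values are GCRMA intensities taken as log2, and a difference is always the hybridized array minus the live array, so that 1 unit is 2-fold. With 1 array a group, no test of any difference was possible and no value has a replicate error. The 2 arrays compare these preparations only, and fewer cells of a kind and less RNA per cell cannot be told apart in bulk RNA.

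Histone tails carry acetyl, methyl and ubiquitin groups that enzymes add (writers) and remove (erasers). Acetylation by the Kat enzymes accompanies active genes and is removed by the Hdac and Sirt enzymes, whereas methylation accompanies active or silent genes depending on the residue. In pluripotent cells the Polycomb complexes hold developmental genes silent, and the promoters of many such genes carry an activating and a repressive methyl mark side by side.

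Both arrays showed the labelled cell type: the 6 pluripotency markers read 10.83 to 13.17 in hybridized cells and 11.53 to 13.03 in live cells. Of 8 fibroblast markers, read as a check for feeder cells, 2 reached a mean of 5, Vim and Col1a1. Vim was high on both arrays, at 12.92 in hybridized cells and 13.07 in live cells. Col1a1 read 4.46 in hybridized cells against 6.17 in live cells, and the 8 log2 values summed to 31.73 in hybridized cells and to 34.54 in live cells. Of 5 trophectoderm markers 3 reached a mean of 5 (Eomes, Krt8 and Krt18), and the 5 log2 values summed to 29.37 in hybridized cells and to 29.41 in live cells. Krt8 read 8.40 in hybridized cells and 9.88 in live cells, Krt18 differed by 0.71, and Cdx2 and Elf5 were under 5. The 18 spiked hybridization control probe sets were lower on the hybridized array, with a median difference of -0.80. Control probe sets for the 5' end gained over those for the 3' end on the hybridized array; the gain was 2.52 log2 units for Actb, 1.81 for Gapdh and 0.50 for Tfrc. The part of these array-wide shifts in the values below was not tested.

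Of the 60 genes, 54 had a mean of 5 or more over both arrays on their brightest probe set and were compared. The limit is a set value and not a test of presence. In the hybridized sample 4 of the 54 were at least 2-fold higher, or 7.41%, against 8.43% of the 7262 genes compared on the array. At least 2-fold lower were 11, or 20.4%, against 15.4% of the genes compared. Together 15 enzymes, or 27.8%, were 2-fold apart, where the background was 23.8%. The median difference was 0.04 over the enzymes and -0.17 over the genes compared, and 26 of the 54 lay below 0, or 48.1%, against 58.5%. The SD of the difference was 0.90 over the enzymes and 0.86 over the genes compared. As a group, with level not matched, the enzymes were thus spread about as widely as other genes. Of the enzymes, 21 had a mean of 11 or more, against 1521 of the genes compared. By range of the mean, the share 2-fold apart was 66.7% of 9 enzymes against 36.2% of genes from 5 to under 7. It was 40.0% of 10 against 33.1% from 7 to under 9, and 21.4% of 14 against 19.7% from 9 to under 11. At 11 or more it was 9.52% of 21 against 6.31%. The counts over all 54 enzymes depended on the centring. With the median gene set to 0, which adds 0.17 to each difference, 8 were 2-fold higher and 9 lower. The backgrounds were then 11.2% and 11.5%. With the hybridization controls set to 0, which adds 0.80, 20 were higher and 1 lower, against 31.8% and 2.84%. A loess correction for level gave 7 higher and 5 lower, against 11.5% and 9.75%. With 5 or more required on each array, which leaves out Prmt2 (4.97 in hybridized cells), 4 of 53 were higher and 10 lower, against 8.18% and 13.9%. Each direction below is as deposited. Any difference between -0.80 and 0 becomes positive when the controls are set to 0.

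**Figure D1:**
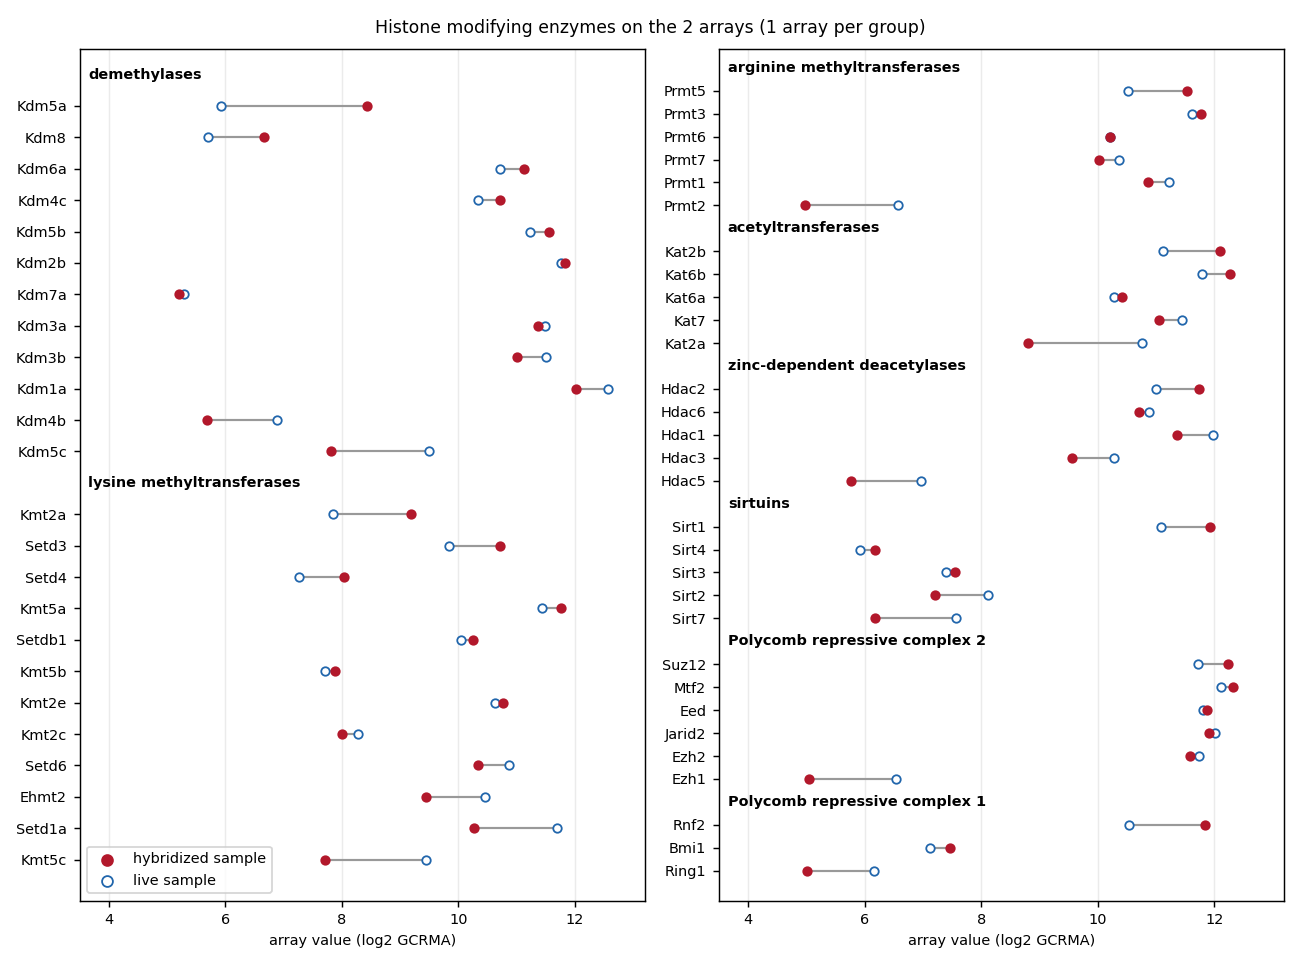
The value of each of the 54 enzymes (log2 GCRMA, horizontal axis) in the hybridized sample (filled) and the live sample (open), by role and ordered within each role by the difference. Kdm5a has the longest line to the right and Kat2a the longest to the left, while Prmt6 differs by 0.01.

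**Figure D2:**
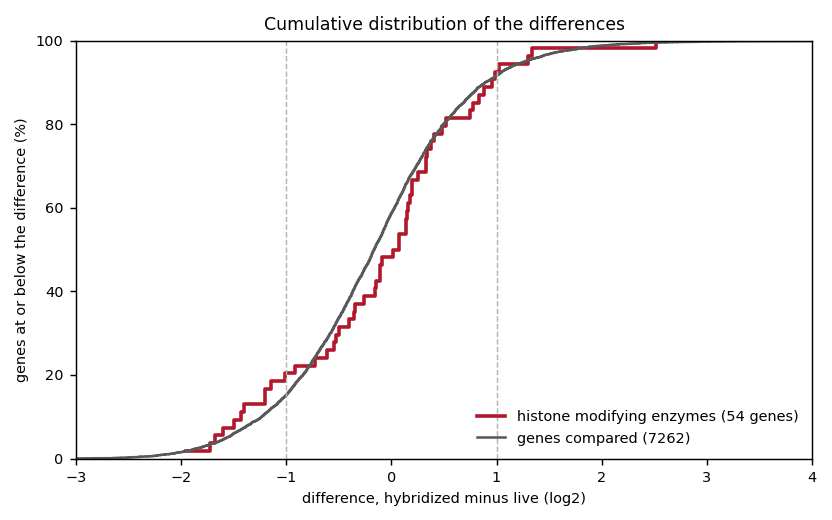
Cumulative share of genes (vertical axis, percent) by the difference between hybridized and live (horizontal axis, log2), for the 54 enzymes and for the 7262 genes compared. The dashed lines mark 2-fold; the curve of the enzymes lies above that of the genes compared at -1 and below it around 0.

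Among the demethylases, 12 of 13 genes were compared. Of these, 1 was higher and 2 were lower by 2-fold or more, against 8.43% and 15.4% of the genes compared. The median difference was -0.01. Kdm5a (Entrez 214899), which removes the methyl mark of active promoters, read 8.44 in hybridized cells and 5.92 in live cells, a 5.74-fold difference. This was the widest gap of the 54 enzymes, on its single probe set, whose suffix marks probes common to several transcripts of the gene. Its paralog Kdm5c, an X-linked enzyme with the same substrate, went the other way at 7.82 in hybridized cells against 9.50 in live cells. The second probe set of Kdm5c, under the limit, was 0.55 higher. Kdm5b, the third paralog, differed by 0.33 on its brightest probe set and by -0.14 on the other. The Y-linked Kdm5d was under the limit with 2.03 in hybridized cells and 1.99 in live cells. The Kdm5 family thus held both the highest and the lowest difference of the demethylases.

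Kdm4b, an eraser of a heterochromatin mark, read 5.69 in hybridized cells and 6.89 in live cells, a difference of -1.20. Its paralog Kdm4c differed by 0.38. Kdm3a (-0.11) and Kdm3b (-0.50), which remove a silencing mark, were both under 2-fold. Kdm1a, the flavin-dependent demethylase LSD1, disagreed between its probe sets at -0.55 and 0.40. Kdm6a, which removes the Polycomb methyl mark, was 0.40 higher on one probe set and 0.90 higher on the other. Kdm2b, which brings a form of Polycomb repressive complex 1 to unmethylated CpG islands, read 11.83 in hybridized cells and 11.76 in live cells. Kdm7a (-0.09) and Kdm8, a JmjC-domain protein (0.96), completed the erasers. Except for the 3 named as 2-fold apart, the demethylases compared thus differed by less than 2-fold on their brightest probe set.

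The lysine methyltransferases numbered 14, of which 12 were compared. Of these, 1 was higher and 3 were lower by 2-fold or more, against 8.43% and 15.4% of the genes compared. The median difference was 0.16. Kmt2a (Entrez 214162), the MLL1 enzyme that methylates active promoters, read 9.19 in hybridized cells and 7.85 in live cells. Its second probe set differed by 0.14, so the 2-fold call did not repeat. Setd1a, another writer of the same mark, read 10.26 in hybridized cells and 11.69 in live cells, a difference of -1.43. Its second probe set, just under the limit, differed by 0.33. Kmt5c (Entrez 232811), which methylates histone H4 in constitutive heterochromatin, read 7.71 in hybridized cells and 9.44 in live cells on its single probe set. Its paralog Kmt5b, with 4 probe sets at the limit, ranged from -0.40 to 0.81. The probe set at 0.81 read 5.50 in hybridized cells and 4.69 in live cells, and reached the limit only through the hybridized array. Kmt5a, which makes the first methylation on that residue, was 0.33 and 0.62 higher. Ehmt2, the euchromatic methyltransferase G9a, was just past 2-fold at 9.44 in hybridized cells against 10.45 in live cells. Its second probe set, under the limit, differed by 0.46.

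Setdb1, the methyltransferase that silences endogenous retroviruses in embryonic stem cells, differed by 0.20 on its brightest probe set, at 10.25 in hybridized cells and 10.05 in live cells. Its second probe set differed by 0.10. The third read 7.52 in hybridized cells and 3.04 in live cells. Its mean reached the limit only through the hybridized array, and the live value lies in the range that has no order, so no fold is given. The 3 probe sets of this gene therefore gave different readings. Kmt2e similarly differed by 0.14 on its brightest probe set and by 1.14 on its second. Kmt2c, a writer at enhancers, differed by -0.26. Kmt2d, its paralog, was under the limit on its only probe set (2.31 in hybridized cells and 2.30 in live cells), as was Setd7 (2.29 in hybridized cells and 2.38 in live cells). Setd3, known as an actin methyltransferase, was 0.88 higher. Setd4 was 0.78 higher on its brightest probe set, but its others differed by 0.07 and -0.29. Setd6, which also methylates non-histone proteins, gave -0.53 and 0.52.

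All 6 arginine methyltransferases were compared. By 2-fold or more 1 was higher and 1 was lower, against 8.43% and 15.4% of the genes compared. Prmt5, the main writer of symmetric arginine methylation, read 11.53 in hybridized cells and 10.51 in live cells, a 2.03-fold difference. Its single probe set holds probes that may match other genes. Prmt2 read 4.97 in hybridized cells and 6.57 in live cells on a probe set of the same kind of uncertainty, and its other probe set, under the limit, differed by -0.59. Prmt1, the principal enzyme of asymmetric methylation, differed by -0.36. Prmt3, known for methylating a ribosomal protein, differed by 0.16, while 2 further probe sets under the limit differed by 1.69 and -1.47. Prmt6 (0.01) and Prmt7 (-0.35) were under 2-fold, and the median of the class was -0.17, equal to that of the genes compared.

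Of the 5 acetyltransferases, all compared, 0 were higher and 1 was lower by 2-fold or more, against 8.43% and 15.4% of the genes compared. The median difference was 0.14. Kat2a and Kat2b, or Gcn5 and PCAF, are alternative catalytic subunits of the same coactivator complexes. Kat2a (Entrez 14534) read 8.80 in hybridized cells and 10.76 in live cells, a difference of -1.96 and the lowest of the 54 enzymes. Its other 2 probe sets differed by 0.07 and 0.02. Kat2b read 12.10 in hybridized cells and 11.11 in live cells, just under 2-fold, and its second probe set, under the limit, differed by 0.94. The 2-fold lower value of Kat2a thus rested on 1 of its 3 probe sets. Kat6a (0.14) and Kat6b (0.48), the MOZ and MORF enzymes, and Kat7 (-0.40), known as HBO1, were under 2-fold.

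Of 8 zinc-dependent deacetylases 5 were compared, with a median of -0.61 as deposited, against -0.17 over the genes compared. With the hybridization controls set to 0 the medians become 0.19 and 0.63, so the class stays lower by construction. By 2-fold or more 0 of the 5 were higher and 1 was lower, against 8.43% and 15.4% of the genes compared. Hdac1 and Hdac2 are close paralogs that share the Sin3, NuRD and CoREST complexes. Hdac1 read 11.36 in hybridized cells and 11.97 in live cells, while Hdac2 read 11.74 in hybridized cells and 10.99 in live cells. Their differences of -0.61 and 0.75 lay on opposite sides of 0, each under 2-fold and on a single probe set. Hdac3, the deacetylase of the NCoR complexes, differed by -0.73, and Hdac6, a cytoplasmic enzyme that acts on tubulin, by -0.16. Hdac5, of the signal-responsive class that shuttles between nucleus and cytoplasm, was 2-fold lower at 5.77 in hybridized cells against 6.97 in live cells. Hdac7, Hdac9 and Hdac11 were under the limit.

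All 5 sirtuins measured, the NAD-dependent deacetylase family, reached the limit, each on a single probe set. Sirt7, a nucleolar enzyme, read 6.17 in hybridized cells and 7.57 in live cells, a difference of -1.40 and the only one of 2-fold. The sirtuins thus held 0 higher and 1 lower of 5, against 8.43% and 15.4% of the genes compared. Sirt1, a nuclear enzyme, read 11.92 in hybridized cells and 11.09 in live cells. Sirt2, mainly cytoplasmic, read 7.20 in hybridized cells and 8.12 in live cells. The mitochondrial Sirt3 (0.15) and Sirt4 (0.25) were close to 0, so the family differed in direction between members.

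The core of Polycomb repressive complex 2, which deposits the repressive methyl mark, was close on the 2 arrays. Ezh2, its main catalytic subunit in dividing cells, read 11.58 in hybridized cells and 11.73 in live cells. Eed, which binds the mark, read 11.88 in hybridized cells and 11.81 in live cells. Suz12, a scaffold subunit, read 12.24 in hybridized cells and 11.72 in live cells. These 3 core subunits differed by less than 2-fold on their brightest probe set. Suz12 had 5 probe sets at the limit, all above 0, from 0.18 to 1.73, and 1 of the 5 passed 2-fold. The accessory subunit Mtf2 likewise lay above 0 on all of its 4 probe sets, from 0.20 to 0.77. Jarid2, the accessory subunit tied to targeting in embryonic stem cells, lay below 0 on all 3 of its probe sets, from -0.78 to -0.11. Ezh1, the alternative catalytic subunit, was the member at least 2-fold lower, at 5.04 in hybridized cells and 6.54 in live cells, but its second probe set differed by -0.02. The complex thus held 0 higher and 1 lower of 6 compared, against 8.43% and 15.4% of the genes compared.

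Polycomb repressive complex 1 ubiquitinates histone H2A through either of a pair of ligases, Rnf2 (RING1B) and Ring1 (RING1A), and these stood on opposite sides. Rnf2 (Entrez 19821) read 11.84 in hybridized cells and 10.54 in live cells, a 2.46-fold difference. A second probe set of Rnf2 read 10.79 on both arrays, so the gain was seen on 1 of its 2 probe sets at the limit. Ring1 (Entrez 19763) read 5.01 in hybridized cells and 6.16 in live cells on its single probe set, a difference of -1.15. Bmi1, a partner that stimulates the ligases, was 0.34 and 0.13 higher on its 2 probe sets. Among the 3 members of this complex 1 was higher and 1 lower by 2-fold, against 8.43% and 15.4% of the genes compared. The promoters of the ligase pair are shown because these paralogs of the same complex were both 2-fold apart as deposited, in opposite directions. Ring1 was under 2-fold at -0.98 after median centring, -0.35 with the hybridization controls set to 0 and -0.64 after loess. Rnf2 was at 0.59 with its probe sets averaged, those under the limit included. The promoters shown are the 250 bases before the RefSeq start on the gene's strand, both minus, in build GRCm38.p6, with CG dinucleotides in capitals.
Rnf2, chr1:151500992-151501241: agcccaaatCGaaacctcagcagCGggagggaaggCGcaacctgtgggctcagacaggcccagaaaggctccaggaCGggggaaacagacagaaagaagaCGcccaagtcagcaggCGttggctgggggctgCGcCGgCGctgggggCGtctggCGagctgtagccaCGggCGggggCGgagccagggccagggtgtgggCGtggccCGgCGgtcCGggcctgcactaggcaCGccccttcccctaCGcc
Ring1, chr17:34024681-34024930: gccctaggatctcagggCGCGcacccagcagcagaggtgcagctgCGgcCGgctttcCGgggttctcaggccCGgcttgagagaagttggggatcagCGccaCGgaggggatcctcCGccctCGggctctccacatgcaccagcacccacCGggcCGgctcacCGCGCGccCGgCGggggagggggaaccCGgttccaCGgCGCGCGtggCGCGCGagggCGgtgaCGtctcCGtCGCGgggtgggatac
The motif CG reads the same on both strands. It occurs 20 times in the Rnf2 window, with 70.4% G and C, and 30 times in the Ring1 window, with 73.6%. Both counts are above the median of 17 over the 47 enzymes compared that have an entry. That median equals the one of the 5997 genes compared with an entry, while it is 6 over the 27025 genes of the promoter table, of which 92.3% hold at least 1 CG. Across the 47 enzymes the CG count and the difference had a Spearman rho of 0.17, and 0.01 across the 5997 genes, as a description over genes that share the same 2 arrays.

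Within several pairs of related enzymes the differences thus parted in direction or size. The difference of Kdm5a exceeded that of Kdm5c by 4.20 log2 units, Kat2b exceeded Kat2a by 2.95, Rnf2 exceeded Ring1 by 2.45 and Sirt1 exceeded Sirt2 by 1.75. Hdac2 exceeded Hdac1 by 1.36 and Ezh2 exceeded Ezh1 by 1.35. A gap between the differences of 2 genes does not move with either centring, which adds the same value to every gene. It does move with the loess correction, which depends on level. After loess Rnf2 was at 1.32 and Ring1 at -0.64, a narrower gap, and that of Ezh2 over Ezh1 narrowed too. Kdm5a was then at 2.92 and Kdm5c at -1.53, a wider gap. With probe sets averaged the gap was 1.59 for Kat2b over Kat2a and 0.61 for Ezh2 over Ezh1. Averaged, the gap was 3.08 for Kdm5a over Kdm5c and 1.74 for Rnf2 over Ring1. The averages of Kat2b, Kdm5c and Rnf2 take in probe sets under the limit. These pairs were picked after their values were seen, and how often paralogs part in this way among other genes was not tested.

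A second probe set of the same gene gives a check within the arrays. Of the 54 enzymes, 18 had a second probe set with a mean of 5 or more. Among these, 4 were 2-fold apart on the brightest probe set, namely Kmt2a, Rnf2, Kat2a and Ezh1, and 0 of the 4 were 2-fold apart on the second. Over the genes compared, 36.1% of 545 such genes repeated in the same direction. The gap between the probe sets had an SD, divided by the square root of 2, of 0.65 over the 18 enzymes and 0.73 over 2720 genes. The sign was the same on both probe sets for 12 of 18 enzymes, or 66.7%, against 63.7% of the 2720 genes. The differences of the 2 probe sets had a Pearson r of 0.08 across the 18 enzymes and 0.39 across the 2720 genes, as a description over genes on the same 2 arrays. Conversely, 29 probe sets at the limit were not the brightest of their gene. Of the 27 among them that read 5 or more on both arrays, 2 were at least 2-fold higher (in Suz12 and Kmt2e) and 0 at least 2-fold lower. The array-wide share for such probe sets is not given here. Counted by probe set, with that of Setdb1 included, 7 of 83 were 2-fold higher (8.43%) and 11 lower (13.3%), against 13.1% and 12.8% of the 11407 probe sets at the limit. The other 11 enzymes called 2-fold apart had no second probe set at the limit.

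**Figure D3:**
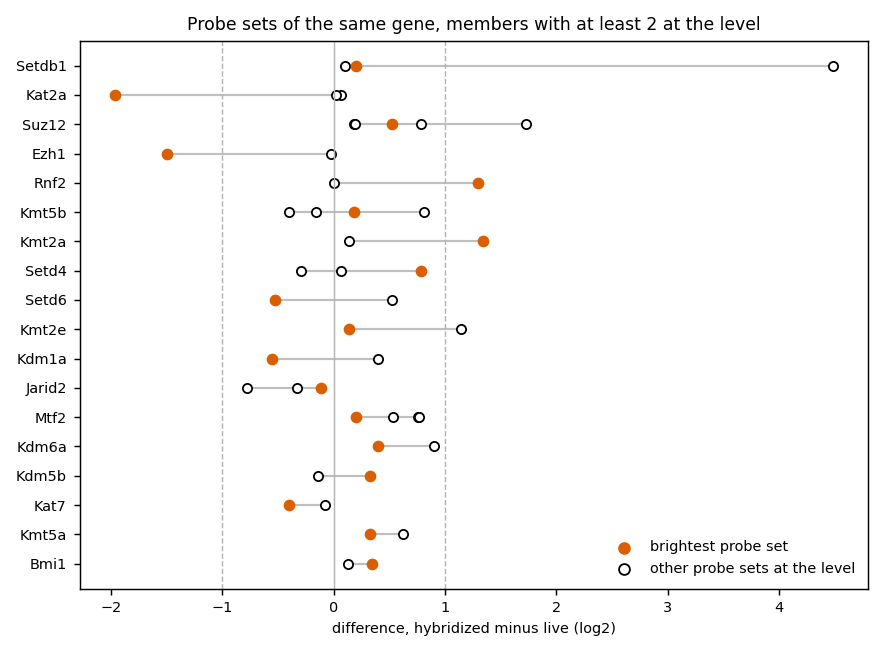
Differences (horizontal axis, log2, hybridized minus live) of every probe set with a mean of 5 or more, for the 18 enzymes with at least 2 of them, ordered by the range of the differences. Filled points are the brightest probe set and dashed lines mark 2-fold; the ranges run from 0.21 in Bmi1 to 4.38 in Setdb1, where the outermost point has a live value under the limit.

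The 2-fold calls fell at different signal levels by direction. Between mean values of 5 and 7, 6 of 9 enzymes passed 2-fold as lower (Ezh1, Hdac5, Kdm4b, Prmt2, Ring1 and Sirt7) and 0 as higher, against 28.6% and 7.6% of the 1407 genes compared in that range. Prmt2 was in this range only through its live value. The median there was -1.20 for the 9 enzymes and -0.51 for the 1407 genes. From 7 to under 9, 2 of 10 enzymes were higher and 2 lower, with backgrounds of 12.4% and 20.6%. From 9 to under 11, 0 of 14 were higher and 3 lower, with backgrounds of 9.12% and 10.6%. At a mean of 11 or more, 2 of 21 enzymes were higher (Rnf2 and Prmt5) and 0 lower, with backgrounds of 2.83% and 3.48%. The lowest range thus held 6 of the 11 lower enzymes, and over the genes compared the share of lower genes was highest there too.

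**Figure D4:**
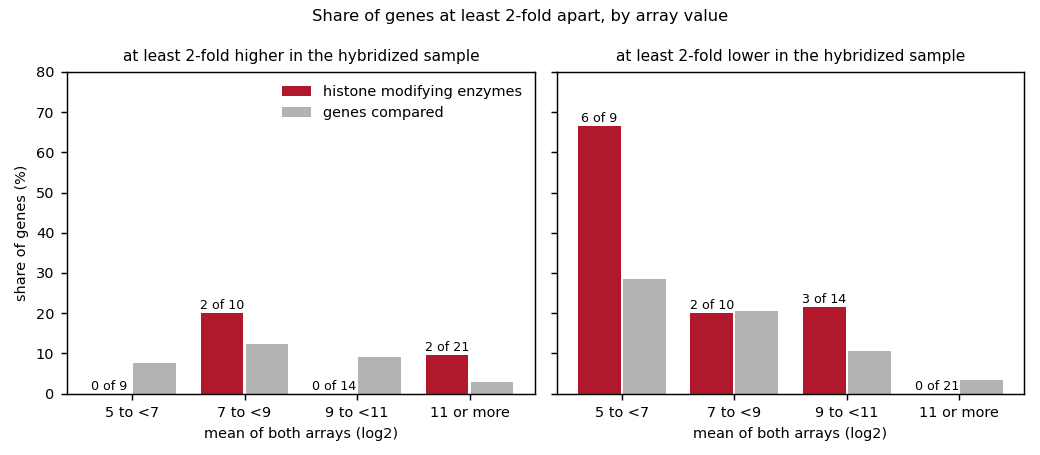
Share of genes (vertical axis, percent) at least 2-fold higher (left) and lower (right) in the hybridized sample, by the mean of both arrays (horizontal axis, log2), for the enzymes and for the genes compared. Counts over the bars are enzymes; 6 of 9 are lower in the range from 5 to under 7, and 2 of 21 are higher at 11 or more.

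Beyond these enzymes, a list of other writers, erasers and complex partners was read on the same arrays. The list was chosen with earlier results of these data known, so its shares are a description only. Of 83 genes on the platform 75 were compared, 3 were at least 2-fold higher (4%, against 8.43% of the genes compared) and 16 lower (21.3%, against 15.4%). Their median was -0.35, and that of the genes compared was -0.17. Polycomb partners held 6 of these lower genes among 14 compared (42.9%, against 15.4%), and their median was -0.60. Of the 6, Phf1, Cbx2, Cbx7 and Scmh1 had a mean between 5 and 7, where 28.6% of the genes compared were lower, and Cbx7 reached the limit only through its live value. Phc2, a Polyhomeotic subunit, read 7.21 in hybridized cells and 9.47 in live cells, with a second probe set at -1.18. Cbx2 (-1.14) and Cbx7 (-1.16), chromobox readers of the Polycomb mark, were lower as well, as were Scmh1 (-1.23), Phf1 (-1.41) and Asxl1 (-1.33). The second probe set of Cbx7 differed by -0.93 and that of Asxl1 by 0.14. Pcgf1, a partner of Kdm2b, was the Polycomb partner that was 2-fold higher, at 8.27 in hybridized cells and 7.08 in live cells. Of the 6 lower Polycomb partners only Phc2 was 2-fold apart on a second probe set, while Scmh1 and Phf1 had none and that of Cbx2 was under the limit. With the hybridization controls set to 0, the 75 partner genes had 14 higher and 2 lower, against 31.8% and 2.84% of the genes compared. With the median gene set to 0, 4 of the 75 were higher and 8 lower, against 11.2% and 11.5%. After loess 3 were higher and 7 lower, against 11.5% and 9.75%. The larger share of lower partner genes as deposited thus depended on the centring and on the correction for level. The median of the partner genes stayed under that of the genes compared. It was 0.45 against 0.63 with the hybridization controls set to 0, where the gap is kept by construction, and -0.2292 against -0.0004 after loess.

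In the partners of the MLL and Set1 enzymes, 2 of 8 were at least 2-fold lower, where the background was 15.4%. Men1 (menin) read 7.20 in hybridized cells and 8.83 in live cells, with 0.32 on its second probe set. Cxxc1, which ties Setd1a to CpG islands, read 7.93 in hybridized cells and 9.64 in live cells. Its second probe set, under the limit, was 0.75 higher, so neither gene was lower on another probe set. Among the partners of the deacetylases, 4 of 20 were lower and 1 higher, against 15.4% and 8.43%. Sin3a (-1.04), the scaffold of the Sin3 complex, Sap30 (-1.04), of the same complex, and Rcor2 (-1.08), a CoREST subunit, were just past 2-fold, and Mta1, a NuRD subunit, differed by -1.30. Arid4b, another Sin3 component, read 9.44 in hybridized cells and 8.15 in live cells, and its second probe set was 1.17 higher. Arid4b and Phc2 were the partner genes named here whose 2-fold difference repeated on a second probe set at the limit. Of 16 partners of the acetyltransferases, 1 was lower, against the same 15.4%, Brpf1 at -1.05, a scaffold of the Kat6 complexes. Among other enzymes, Nsd1, a methyltransferase of gene bodies, read 7.77 in hybridized cells and 5.13 in live cells, a difference of 2.64. Smyd5 (-1.90, with 0.76 on its second probe set), Riox1 (-1.05) and Ncoa3 (-1.14), a nuclear receptor coactivator, were lower.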

How the data were processed

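The data are 2 arrays of mouse iPSCs, 1 hybridized and 1 live. Per the labels' protocols the RNA was isolated with Trizol LS, amplified by NuGEN Ovation chemistry and biotin-labelled. The deposited table holds a log2 GCRMA value for each probe set and array. Its log base is not stated and was inferred from the range of 1.02 to 14.24. GCRMA and affy are named, per the submitters' processing notes; the sources used here give neither their versions nor which arrays were normalized together. Of 22690 probe sets, 64 are controls, 20380 have 1 gene symbol, 691 several (none of them one of the enzymes) and 1555 none. All 60 symbols matched RefSeq genes of GRCm38.p6 through their Entrez IDs.

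A gene was represented by its brightest probe set over both arrays and compared where that mean reached 5. A difference of 1 or more in size counts as 2-fold. No model was fitted. Every enzyme could be named, while partner genes were named only where 2-fold apart. The enzymes and lists were chosen with earlier results of these data known. Alternatives were other levels (4, 7, none, 5 on each array), the mean over probe sets, leaving out suffixed probe sets, 2 centrings, loess (span 0.3), quantile normalization, thresholds of 1.5-fold and 4-fold and current symbols. The gene-level rule and the 2-fold call were run on simulated probe sets with known shifts. The simulated noise was smaller than the spread between probe sets in these data, so the run gives no error rate for them. Promoter sequences are from RefSeq. Python 3.11.15 was used, together with pandas 2.3.3, numpy 2.4.6, statsmodels 0.14.6, scipy 1.17.1 and, for plots, matplotlib 3.10.9.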

Additional observations from a re-analysis of the deposited data

How the results depend on the processing

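No paired analysis was possible because each group has 1 array. As deposited 4 enzymes were at least 2-fold higher and 11 lower. After centring on the median gene 8 were higher, against 11.2% of the genes compared. Centring on the hybridization controls gave 20 higher and 1 lower, against 31.8% and 2.84%. Loess gave 7 higher and 5 lower, against 11.5% and 9.75%. A level of 7, which removes the 6 lower enzymes at modest signal, left 5 of 45 lower, against 12.2%. Averaging probe sets gave 5 of 53 lower, against 11.3%. Without suffixes _x_at, _s_at and _a_at 2 of 44 were higher, against 10.3%. At 1.5-fold 10 of 54 were higher and 14 lower, against 17.5% and 29.9%. At 4-fold 1 was higher and 0 lower, against 1.2% and 1.56%. The median of the enzymes moved to 0.21 and 0.84 under the 2 centrings, by construction. The median of the partner genes, -0.35 as deposited, was -0.18 with averaged probe sets and after median centring, -0.20 without the suffixed probe sets, 0.45 with control centring and -0.23 after loess. Of the 15 enzymes 2-fold apart, 9 stayed so at a level of 7, where the other 6 were under the limit, 7 with averaged probe sets, 5 with control centring and 9 after loess. Control centring left Kat2a and the 4 higher enzymes; after loess Ehmt2, Ezh1, Hdac5, Kdm4b, Ring1 and Sirt7 lost the call, and after median centring Ehmt2 and Ring1. None of the 15 changed sign under an alternative that gave it a value. With averaged probe sets Ehmt2, Ezh1, Kat2a, Kdm5c, Kmt2a, Rnf2 and Setd1a fell under 2-fold and Prmt2 fell under the level. The averages take in probe sets under the level, which were the only others of Ehmt2, Kdm5c and Setd1a and some of those of Rnf2. The cause of the other changes was not tested. The single array per group limits the precision, and for 36 of the 54 enzymes no other probe set reached the level.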
